A study of Mus musculus with 48 samples.

Results

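The genes described here are 38 antiviral genes that cells switch on in answer to type I interferon. They were chosen by symbol, and 38 of 38 stand among the 24421 gene entries shared by the 6 tables of normalised reads. The series is about the astrocytic transporter Slc22a3 and comprises 48 RNA sequencing libraries of mouse brain cells sorted by fluorescence, with 3 libraries in each of 16 groups. In 14 groups the mice carried the Aldh1l1-GFP allele, which marks astrocytes with green fluorescent protein. Of these, 12 groups were labelled Gq-Saline or Gq-CNO (clozapine-N-oxide, the ligand of a Gq-coupled designer receptor), each with a GFP astrocyte sort and a sort labelled mCh (mCherry) neurons from cortex, hippocampus and olfactory bulb. The other 2 held GFP astrocytes of the olfactory bulb from mice labelled CNO control or untreated. The last pair was also from olfactory bulb, from Slc22a3-FF mice (floxed Slc22a3), with mCh astrocytes sorted after Gfap-mCh (flox control) or Gfap-Cre (labelled Slc22a3-cKO). The Gfap promoter that drives the Cre is an astrocyte promoter, and the labels give neither the age of the mice nor which cells carried the Gq receptor. The labels do not name the animal behind a library, so p-values cover the spread among these libraries only, which may be technical.

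Depth ran from 228048 to 24664376 reads assigned to genes. A count of 0 therefore allows up to 0.122 RPM (reads of a gene out of 1000000) in the deepest and 13.2 RPM in the shallowest library (3 reads, counting error only). The ribosomal RNA entry Rn45s took 8.00% to 23.1% of reads. The GFP sorts carried the astrocyte markers, whereas the sorts labelled neurons and the olfactory bulb sorts labelled mCh astrocytes carried microglia markers: in the 3 flox control libraries the summed level of 12 microglia markers was 4826 to 11268 RPM, and that of 10 astrocyte markers 4437 to 10149 RPM. In the sorts labelled neurons, 8 oligodendrocyte markers summed higher than the microglia markers, at 18277 to 60108 RPM against 4365 to 14316 RPM. Their 9 neuron markers summed to 1524 to 4471 RPM. In the sorts labelled mCh astrocytes the oligodendrocyte sum was 778 to 3663 RPM. The sorts labelled neurons or mCh astrocytes are therefore called mCh sorts below. A bulk level cannot tell fewer cells of a type from less RNA per cell.

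Type I interferons bind the receptor pair Ifnar1 and Ifnar2, and the kinases Jak1 and Tyk2 then pass the signal to transcription factors. Among these, Stat2 and Irf9 act in a complex that binds the interferon-stimulated response element (ISRE) of target promoters. The targets include sensors of viral nucleic acid, enzymes and RNA-binding proteins that block viral replication, and proteins that tune the response itself. In the brain, microglia and astrocytes both express them.

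Promoter sequences show which members carry the ISRE core letters next to their start. RefSeq promoter windows (GRCm38.p6, 250 bases before to 50 after the start) were found for 27 of the 38 members. The motif searched was GAAANNGAAA on either strand (TTTCNNTTTC when read on the other one), and overlapping matches were counted. It stood in 12 of the 27 windows (44.4%), against 1079 of 27025 windows of all genes (3.99%). The 12 were Isg15 with 3 matches, Ifit1, Ifit3, Oas1a, Bst2 and Ifitm3 with 2 each, and Rsad2, Oas3, Ifih1, Ddx58, Eif2ak2 and Trim30a with 1 each. The 250 bases before the start are printed for 5 members: Ifit1, Ifit3 and Isg15, which differed in level between the floxed groups, and the neighbours Rsad2 and Cmpk2, which lie head to head on chromosome 12 with 12751 bases between them and had different levels. Each is read 5′ to 3′ along the gene's own strand, and capitals mark the matches. Ifit1 (chr19:34640639-34640888, plus strand) has matches that begin 104 and 85 bases before the start, Ifit3 (chr19:34583279-34583528, plus) 156 and 122 bases before, Isg15 (chr4:156200819-156201068, minus) 78, 72 and 66 bases before, and Rsad2 (chr12:26456453-26456702, minus) 120 bases before. Cmpk2 (chr12:26468965-26469214, plus) has none in this stretch.
Ifit1: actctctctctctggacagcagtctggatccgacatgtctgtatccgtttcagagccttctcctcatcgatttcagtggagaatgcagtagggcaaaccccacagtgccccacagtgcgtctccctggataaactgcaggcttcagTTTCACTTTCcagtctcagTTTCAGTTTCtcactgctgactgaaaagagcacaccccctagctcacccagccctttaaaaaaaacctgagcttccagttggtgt
Ifit3: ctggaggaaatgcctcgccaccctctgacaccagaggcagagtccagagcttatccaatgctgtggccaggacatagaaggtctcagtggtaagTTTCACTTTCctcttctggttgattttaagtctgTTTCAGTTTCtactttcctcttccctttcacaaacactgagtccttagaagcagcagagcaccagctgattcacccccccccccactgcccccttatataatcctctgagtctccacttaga
Isg15: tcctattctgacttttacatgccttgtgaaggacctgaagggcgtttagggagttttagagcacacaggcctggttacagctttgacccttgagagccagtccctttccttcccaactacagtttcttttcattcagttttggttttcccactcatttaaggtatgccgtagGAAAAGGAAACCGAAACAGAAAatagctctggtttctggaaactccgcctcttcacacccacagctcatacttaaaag
Rsad2: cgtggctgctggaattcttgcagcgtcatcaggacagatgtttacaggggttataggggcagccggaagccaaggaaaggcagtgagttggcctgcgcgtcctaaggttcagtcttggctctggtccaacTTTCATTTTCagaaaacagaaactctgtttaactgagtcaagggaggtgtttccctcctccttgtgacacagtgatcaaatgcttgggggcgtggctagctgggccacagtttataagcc
Cmpk2: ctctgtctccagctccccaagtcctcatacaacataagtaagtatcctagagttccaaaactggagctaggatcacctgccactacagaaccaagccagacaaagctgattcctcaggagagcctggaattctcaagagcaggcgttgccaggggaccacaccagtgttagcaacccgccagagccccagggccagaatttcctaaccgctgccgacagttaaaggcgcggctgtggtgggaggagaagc
A match describes these letters only, and a window without one says nothing of the factor.

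The summed level of the 38 genes was lowest in cortical and hippocampal astrocytes, higher in the olfactory bulb, and highest in the libraries labelled Slc22a3-cKO. Since the tables were normalised separately, levels across them are given as RPM from the recovered reads. The 3 libraries labelled Slc22a3-cKO summed to 6151, 8441 and 4250 RPM in replicate order, and the 3 flox control libraries to 2144, 1162 and 1969 RPM. These 2 groups do not overlap, and 5 of the 6 libraries lie above each of the other 42, whose highest reached 1584 RPM. Olfactory bulb astrocytes summed to 838 to 942 RPM with the CNO control label, 707 to 1584 RPM untreated, 447 to 633 RPM with Gq-Saline and 480 to 916 RPM with Gq-CNO. Cortical astrocytes had 294 to 310 RPM with Gq-Saline and 237 to 271 RPM with Gq-CNO, and hippocampal astrocytes 236 to 331 RPM and 270 to 389 RPM. The mCh sorts of the Gq mice had 334 to 600 RPM in the cortex, 341 to 510 RPM in the hippocampus and 358 to 846 RPM in the olfactory bulb. In the Gq mice the Gq-Saline and Gq-CNO ranges overlap in 5 of the 6 pairs of groups, all but the cortical astrocytes.

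**Figure D1:**
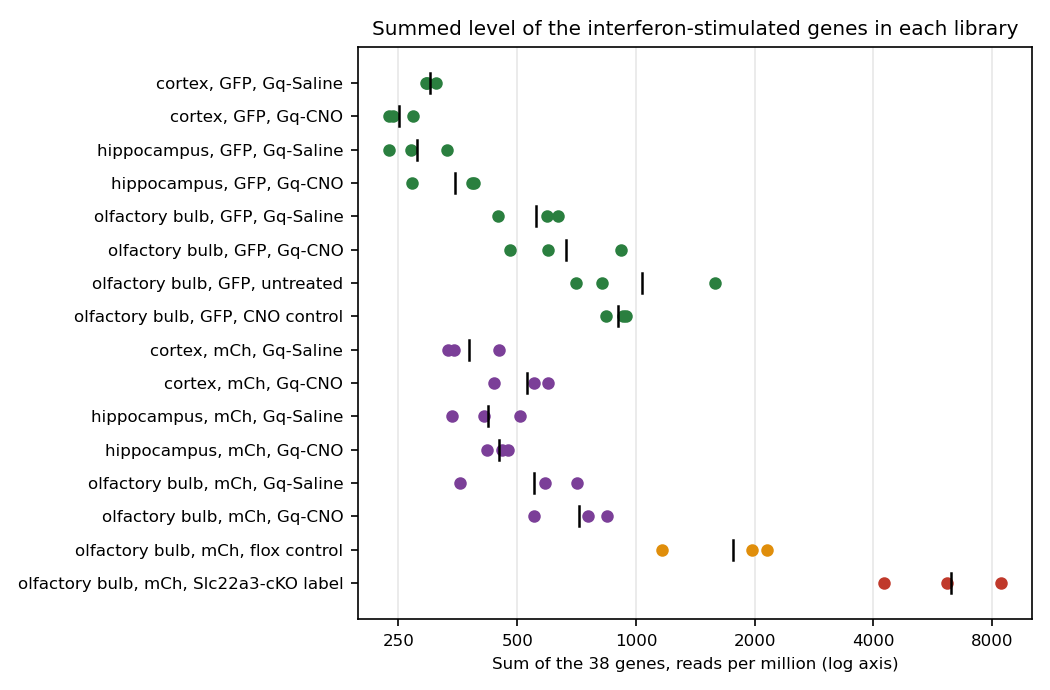
Summed level of the 38 genes in each of the 48 libraries (RPM, log axis), 1 line per group, with a point per library and a bar at the group mean. The libraries labelled Slc22a3-cKO sit between 4250 and 8441 RPM, above the flox control libraries at 1162 to 2144 RPM.

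Outside the floxed mice few of the genes were abundant. Over those 42 libraries, 15 members had a median of at least 10 RPM, 12 lay between 0 and 10 RPM, and 11 had a median of 0 (Ifi44, Isg20, Usp18, Oas1a, Oas2, Oas3, Oasl1, Mx1, Mx2, Dhx58 and Zbp1). Each of these libraries had reads of 12 to 35 members, against 38 of 38 in every floxed library. The highest medians belonged to Lgals3bp, a secreted glycoprotein gene, at 70.1 RPM, to the double-stranded RNA-activated kinase gene Eif2ak2 at 64.7 RPM and to the RNA sensor gene Ifih1 at 34.4 RPM. For 24 members each of the 3 libraries labelled Slc22a3-cKO lay above each of the 42, and for 36 of the 38 members the highest of all 48 libraries was one labelled Slc22a3-cKO. The exceptions were Cmpk2, a mitochondrial nucleotide kinase gene, and Bst2, which encodes the virion tether tetherin. Cmpk2 was highest at 110 RPM in Gq-CNO replicate 2 of the olfactory bulb astrocytes. Bst2 was highest at 78.9 RPM in cortical mCh Gq-CNO replicate 3, from 18 reads in the shallowest of all libraries. The share of all genes with either pattern is not given here, so the counts of 24 and 36 describe the members only.

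Levels of different genes were set against each other per kilobase of exon. In cortical and hippocampal astrocytes of the Gq mice Lgals3bp led with 17 RPM per kilobase, before Eif2ak2 (11.7) and Ifitm3 (11), a membrane protein gene that hinders viral entry. In olfactory bulb astrocytes of the Gq mice Ifitm3 led with 46.7 RPM per kilobase, before Lgals3bp (27.4), Ifit3 (22.1) and Cmpk2 (21.1). In the flox control libraries the order was Ifitm3 (68.3), Ifit3 (47.4) and Lgals3bp (45.6). In the libraries labelled Slc22a3-cKO it was Lgals3bp (278), Ifitm3 (178), Ifit3 (134) and the DNA sensor gene Ifi204 (130). Thus Ifitm3, Ifit3 and Lgals3bp stood near the head of the order in both olfactory bulb settings.

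**Figure D2:**
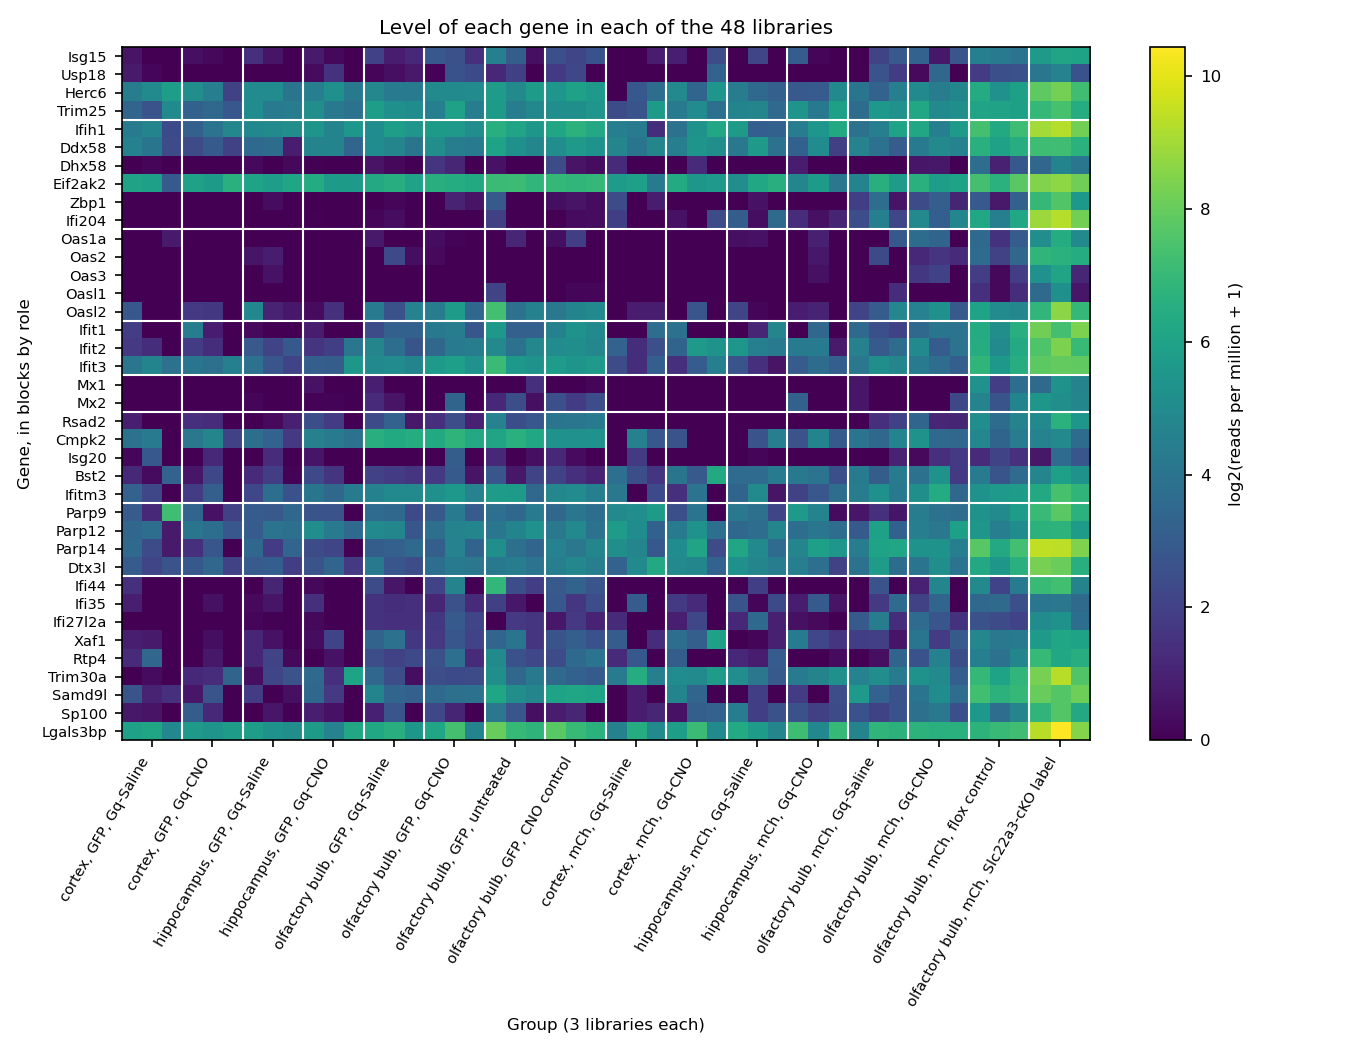
Level of each of the 38 genes, grouped by role, in each of the 48 libraries (colour, log2 of RPM + 1, white lines between groups and roles). The libraries labelled Slc22a3-cKO, at the right, hold the highest value of 36 of the 38 genes, with no share of all genes to set it against.

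The comparison of the libraries labelled Slc22a3-cKO with flox controls addresses what deletion of Slc22a3 in astrocytes does in the olfactory bulb. Slc22a3 itself (chromosome 17, 12418960 to 12507704) had 0, 0 and 0 reads in the flox controls and 0, 0 and 12 reads in the libraries labelled Slc22a3-cKO. The targeted gene was thus not detected in the controls either, and replicate 3 held reads of it despite its label. The deletion is not shown by these reads, which do not tell the cell they came from. With that library left out, 27 members instead of 17 passed the test below, against 2 without replicate 1 and 4 without replicate 2. Whether the reads of Slc22a3 bear on these counts was not tested. In the other 42 libraries Slc22a3 had reads in 8, with 192 reads in all and at most 7.3 RPM.

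All 38 members were higher in the libraries labelled Slc22a3-cKO, and 17 rose (limma adjusted p under 0.05 over 13465 genes), against 184 genes or 1.37% of all genes tested. None fell. The median log2 difference of the 38 was 2.01, against -0.10 for all genes, of which 45.5% were higher. Ratios of the group means ran from 1.35 to 27.7. For 30 of the 38 the groups did not overlap, with every cKO-labelled library above every flox control one, as for 10.6% of all genes. On the filter of 10 normalised reads in 3 libraries, 34 members passed by the flox control group alone, and 16 of the 17 that rose are among them. Zbp1, Oas3 and Dhx58 entered through the libraries labelled Slc22a3-cKO, where they were high, and Oasl1 through libraries of both groups. The 21 that did not pass had an adjusted p of 0.0544 to 0.753. Direction held for 38 of 38 in each of the 13 alternatives run, but the count of calls did not: it was 2 without cKO-labelled replicate 1, 4 without replicate 2, 5 without flox control replicate 2, 9 without flox control replicate 3, 29 by DESeq2 and 1 with no mean-variance trend.

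Among the genes that modify other proteins or damp the response, Isg15 and Herc6 rose. Isg15, the ubiquitin-like protein that is attached to targets, had 188, 161 and 136 normalised reads in flox controls and 496, 734 and 631 in the libraries labelled Slc22a3-cKO, a log2 difference of 1.93 ± 0.40 (SE, n = 3 each, here and below, limma adjusted p = 0.0324). Its ligase gene Herc6 had 755, 340 and 554 against 2359, 3372 and 1446 (2.11 ± 0.40, limma adjusted p = 0.0215). Neither gene's groups overlap. Isg15 has 3 motif matches in its promoter window and Herc6 has 0, and whether matches go with the rise was not tested. The gene of the protease that removes Isg15, Usp18, had 22.8 to 47.3 normalised reads in flox controls against 166, 262 and 49.8 and did not pass (1.82, adjusted p = 0.25). Its cKO-labelled replicate 3 lay just above the controls. Trim25, a ubiquitin ligase gene that acts on the RNA sensor encoded by Ddx58, did not pass either (1.13, adjusted p = 0.109).

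Of the 6 nucleic acid sensors 3 rose, among them Zbp1, which entered the test through the libraries labelled Slc22a3-cKO alone. Zbp1, a sensor of Z-form nucleic acid, had 57.4, 5.78 and 76.0 normalised reads in flox controls and 1278, 2138 and 438 in the libraries labelled Slc22a3-cKO (log2 difference 5.09 ± 0.88, limma adjusted p = 0.0137). The DNA sensor gene Ifi204 had 639, 197 and 688 against 4836, 6781 and 2869 (3.36 ± 0.48, limma adjusted p = 0.00443). The long RNA sensor gene Ifih1 had 1423, 726 and 1347 against 5250, 6803 and 2814 (2.06 ± 0.38, limma adjusted p = 0.0193). In each the groups are apart, with flox control replicate 2 the lowest and cKO-labelled replicate 2 the highest. Its sister Ddx58, the sensor RIG-I, had 857, 548 and 810 against 1494, 1617 and 952, which does not overlap but did not pass (0.86). The kinase gene Eif2ak2 had 1418, 894 and 1968 against 3565, 4414 and 2784 and narrowly missed (1.38, adjusted p = 0.0566), and Dhx58, a regulator of both RNA sensors, overlapped between groups (2.04).

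The oligoadenylate synthetase family, whose active enzymes make the messenger that activates the ribonuclease RNase L, had 3 of 5 genes that rose. Oas2 had 101, 27.5 and 90.4 normalised reads in flox controls and 1145, 1102 and 828 in the libraries labelled Slc22a3-cKO (log2 difference 3.98 ± 0.54, limma adjusted p = 0.00332), and it passed in 13 of 13 alternatives. Oas1a had 95.6, 16.6 and 65.7 against 351, 943 and 292 (3.25 ± 0.73, limma adjusted p = 0.0416). Reads of Oas1a are uncertain, since its near-identical copy Oas1g, which is no member, moved beside it at 8.15, 1.30 and 6.40 RPM against 27.0, 50.2 and 24.1 RPM. Oasl2, a member that also carries ubiquitin-like domains, had 573, 288 and 253 against 1178, 4339 and 1164 (2.38 ± 0.52, limma adjusted p = 0.0378). Oas3 had 23.7, 1.45 and 24.7 against 385, 739 and 11.5, so that cKO-labelled replicate 3 lay among the controls, and it did not pass (3.72). Oasl1 overlapped between groups and did not pass.

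Of the IFIT genes, whose proteins bind viral RNA that lacks the host's cap marks, Ifit1 and Ifit3 rose. Ifit1 had 745, 313 and 852 normalised reads in flox controls and 2983, 1713 and 3152 in the libraries labelled Slc22a3-cKO (log2 difference 2.11 ± 0.42, limma adjusted p = 0.0253). Ifit3 had 988, 422 and 816 against 2327, 2659 and 2238 (1.78 ± 0.35, limma adjusted p = 0.026). The 3 libraries labelled Slc22a3-cKO are nearly level for Ifit3, and its near-identical copy Ifit3b, no member, had 70.5, 27.2 and 62.4 RPM against 156, 131 and 118 RPM, so reads may be shared between them. Ifit2 missed the threshold (1.91, adjusted p = 0.0602).

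Neither of the dynamin-like GTPase genes passed in limma, edgeR or DESeq2, with 1 of 2 at an unadjusted p under 0.05 in limma. Mx1 had 336, 24.6 and 115 normalised reads in flox controls and 117, 421 and 231 in the libraries labelled Slc22a3-cKO (log2 difference 1.18, adjusted p = 0.514). Mx2, which the annotation lists as a polymorphic pseudogene, had 212, 50.6 and 231 against 459, 384 and 255 (1.38, adjusted p = 0.252). The groups overlap for Mx1 and lie close for Mx2.

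The 5 enzyme and membrane factors also gave 0 calls by limma, with log2 differences of 0.44 to 2.07 and 3 of the 5 at an unadjusted p under 0.05, whereas edgeR called 0 and DESeq2 called Bst2 and Ifitm3. Rsad2, which encodes the antiviral radical SAM enzyme viperin, had 295, 106 and 226 normalised reads in flox controls and 320, 1113 and 421 in the libraries labelled Slc22a3-cKO (1.46, adjusted p = 0.184). Its neighbour Cmpk2 had 239, 83.8 and 181 against 246, 320 and 115 (0.44 ± 0.59, adjusted p = 0.753) and overlapped. Ifitm3 had 346, 429 and 477 against 830, 1847 and 1083 and just missed (1.52, adjusted p = 0.0565). Bst2 (2.07, adjusted p = 0.0764) and the exonuclease gene Isg20 (0.95, adjusted p = 0.727) did not pass. Cmpk2 had the smallest difference of the 38.

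Parp9 and Parp14, genes of the ADP-ribosyltransferase family, rose. Parp14 had 1870, 705 and 1445 normalised reads in flox controls and 7185, 7277 and 3226 in the libraries labelled Slc22a3-cKO (log2 difference 2.15 ± 0.42, limma adjusted p = 0.0236). Parp9 had 350, 266 and 482 against 1378, 2351 and 949 (2.03 ± 0.40, limma adjusted p = 0.0268). Parp9 overlaps its partner gene Dtx3l by 682 bases on the opposite strand of chromosome 16, and whether reads were counted by strand is not given in the sources used here, so reads of these 2 cannot be fully told apart. Dtx3l (1.68, adjusted p = 0.0888) and Parp12 (1.56, adjusted p = 0.0839) did not pass.

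Of the 9 remaining members 5 rose. Lgals3bp had 945, 1193 and 1367 normalised reads in flox controls and 6485, 15142 and 3455 in the libraries labelled Slc22a3-cKO (log2 difference 2.59 ± 0.45, limma adjusted p = 0.0134). Rtp4, a chaperone gene that binds viral RNA, had 190, 129 and 241 against 1296, 817 and 856 (2.41 ± 0.40, limma adjusted p = 0.011). The nuclear body gene Sp100 had 410, 110 and 234 against 1144, 2206 and 739 (2.48 ± 0.53, limma adjusted p = 0.035). Their groups are well apart. Xaf1, which promotes cell death, had 239, 156 and 172 against 506, 766 and 628 (1.75 ± 0.40, limma adjusted p = 0.0441), and the tripartite-motif gene Trim30a had 1082, 581 and 1054 against 3252, 6913 and 1857 (1.99 ± 0.45, limma adjusted p = 0.0416). Ifi44 (2.88, adjusted p = 0.0942), Ifi27l2a (2.77, adjusted p = 0.0544), Samd9l (1.13, adjusted p = 0.0622) and Ifi35 (0.98, adjusted p = 0.447) did not pass. In 31 of the 38 members the highest cKO-labelled library was replicate 2, as in 29.5% of all genes compared.

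**Figure D3:**
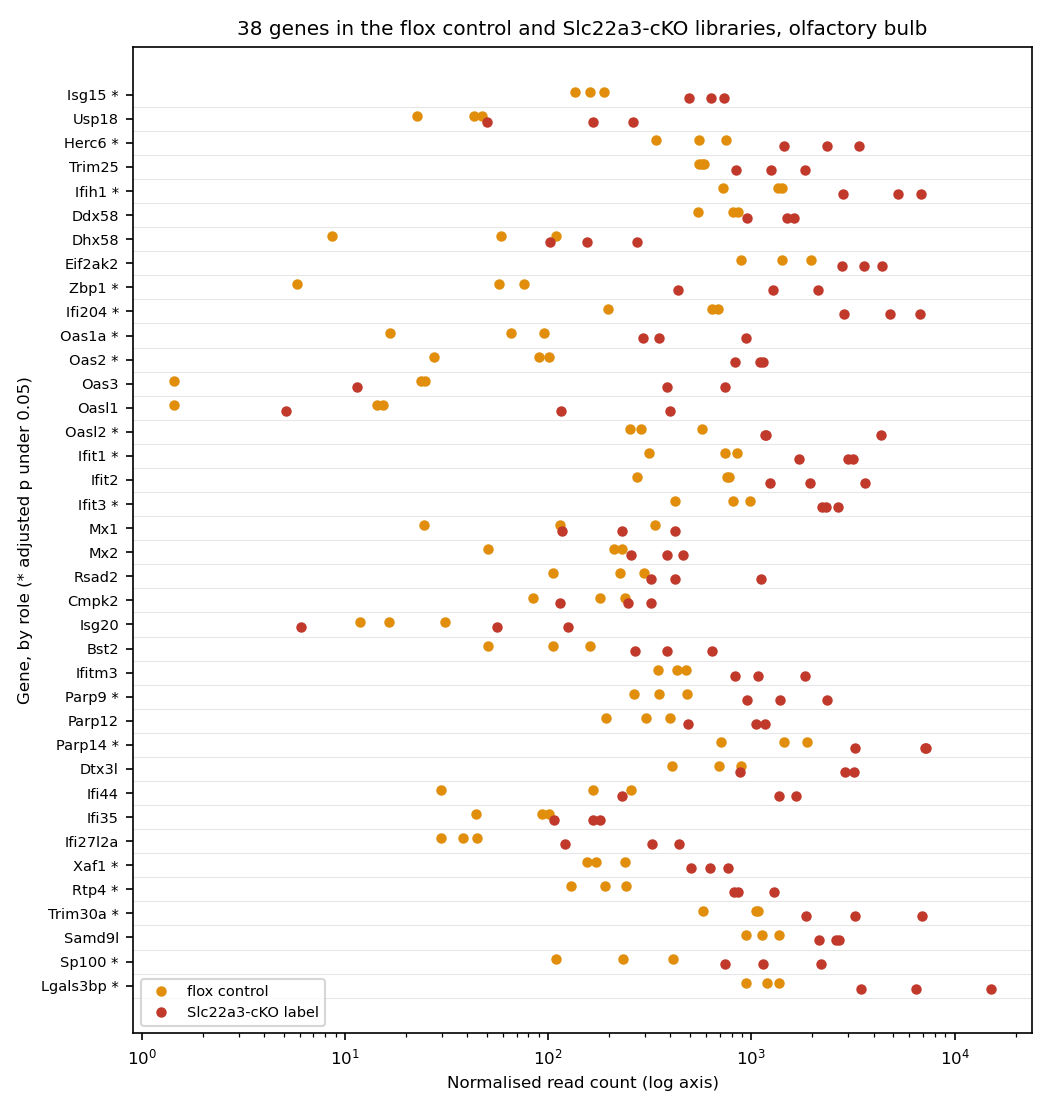
Normalised reads (log axis) of the 38 genes in the 3 flox control libraries and the 3 libraries labelled Slc22a3-cKO, 1 line per gene, ordered by role. In 30 genes the groups do not overlap, and Cmpk2, Mx1 and Isg20 are among the 8 where they do.

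The rest of the pathway was read from lists of genes that are no members. Of 18 genes of the interferon-gamma-type response, such as guanylate-binding proteins and immunity-related GTPases, 18 rose, with a median log2 difference of 3.65 against -0.10 for all genes. Of 10 genes of class I antigen presentation 6 rose (median 2.33). Of the transcription factors of the pathway, Stat2 (log2 difference 2.00), Irf1 (1.80) and Irf7 (3.74) rose, whereas Irf9 (1.01) did not pass. Of 11 tested adaptors and sensors upstream of interferon only the kinase gene Ikbke rose (4.03). Of 12 interferon and receptor genes 5 were tested and limma, edgeR and DESeq2 called 0, with 3 at an unadjusted p under 0.05 in limma and Ifnar1 at 0.97 and Ifnar2 at 0.96. The interferon genes themselves were hardly read: Ifnb1 had 0, 0 and 0 reads in flox controls and 0, 6 and 0 in the libraries labelled Slc22a3-cKO, Ifng had 0, 1 and 0 against 9, 15 and 0, and Ifna1, Ifna2, Ifna4, Ifnl2 and Ifnl3 had 0 in all 6.

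Markers of several cell types moved between these groups too, and their part in the result was not tested. The 12 microglia markers were read in all 6 libraries, and their summed level overlapped, at 4826 to 11268 RPM in flox controls and 5687 to 11256 RPM in the libraries labelled Slc22a3-cKO. Within that sum, C1qa, C1qb and Trem2 had more RPM in each cKO-labelled library than in each flox control, and Fcrls had less. The other microglia markers of the list overlapped. The 10 astrocyte markers summed to 4437 to 10149 RPM against 1138 to 3029 RPM, and the 9 neuron markers to 1385 to 3875 RPM against 374 to 1093 RPM, without overlap in either. The 6 markers of neutrophils and monocytes summed to 4.15 to 8.77 RPM against 12.1 to 112 RPM, with 3 to 6 of them read in a flox control and 3 to 5 in a cKO-labelled library. The leukocyte integrin gene Itgal made up most of this in the latter, and without it the other 5 overlapped, at 3.14 to 7.62 RPM in flox controls against 2.67 to 13.5 RPM. The 8 listed markers of T and NK cells summed to 5.70 to 16.2 RPM against 11.6 to 47.2 RPM, with 1 to 3 read per flox control and 4 to 8 per cKO-labelled library. The T cell receptor subunit gene Cd3e was at 0 in all 3 flox controls and in 1 of the 3 libraries labelled Slc22a3-cKO. Border macrophage, oligodendrocyte and endothelial markers overlapped, the first at 551 to 1383 RPM against 426 to 589 RPM.

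Flox controls also stood above the olfactory bulb mCh sort of the Gq-Saline mice. Of 31 members tested 19 were higher (limma adjusted p under 0.05) and 0 lower, against 14.6% of all genes higher, and the median log2 difference was 1.94 against 0.41 for all genes, on the scale of log2(RPM + 1). The 7 other members were too low to test. The comparison crosses tables normalised separately, and genotype, the Gfap construct, the sorted cells and the table cannot be told apart in it. Parp9 had 39.7, 29.5 and 52.6 RPM in flox controls and 0.570, 1.70 and 0.522 RPM in Gq-Saline (4.45 ± 0.65, SE, n = 3 each, limma adjusted p = 0.000966). Ifit1 had 84.4, 34.8 and 93.0 RPM against 10.8, 4.76 and 3.13 RPM (3.33 ± 0.62, limma adjusted p = 0.00371), and Isg15 21.4, 17.9 and 14.8 RPM against 0, 3.4 and 6.78 RPM (2.54). Mx2 (3.81), Rsad2 (3.33), Samd9l (3.16) and Rtp4 (3.14) were among the other genes called. Of the 31 tested members 21 lay wholly above Gq-Saline, as did 27.1% of all genes tested, and 16 of the 31 passed the filter by the Gq-Saline libraries alone. Of the genes named here, only Samd9l is among these 16. Parp9, Ifit1, Isg15, Mx2, Rsad2 and Rtp4 entered through the flox controls, where they were high.

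This result depended on scaling and on single libraries. TMM scaling, which lowered the median of all genes from 0.41 to 0.22, left 13 members called with a median of 1.75, and 57.6% of all called genes higher instead of 69.4%. edgeR called 9 members (46.8% of called genes higher), and 3 were called without flox control replicate 1 or without replicate 3, and 12 without Gq-Saline replicate 1. Oligodendrocyte markers summed to 18277 to 37795 RPM in Gq-Saline and 1577 to 3466 RPM in flox controls. The nuclear RNA Malat1 stood at 2826 to 3897 RPM in Gq-Saline against 25796 to 57279 RPM in flox controls, and Rn45s took 18.2% to 23.1% of reads against 10.6% to 12.4%. The part of these in the result was not tested.

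In the Gq mice, astrocytes of the olfactory bulb had more of these transcripts than astrocytes of the cortex. With treatment as a term, 19 members were tested, 19 were higher in the olfactory bulb, and 8 passed (limma adjusted p under 0.05, 0 lower), against 5.25% of all genes higher. The median log2 difference was 1.58 against 0.38 for all genes, 72.2% of which were higher. Cmpk2 had 92.0, 78.9 and 87.8 RPM (saline) and 78.8, 110 and 78.2 RPM (CNO) in the olfactory bulb, and 13.9, 18.7 and 0 RPM and 17.3, 26.0 and 3.08 RPM in the cortex (3.26 ± 0.64, SE, n = 6 each, limma adjusted p = 0.00392). Ifitm3 had 31.7 ± 8.68 RPM against 3.8 ± 3.77 RPM (SD, n = 6 each; log2 difference 3.24 ± 0.63, limma adjusted p = 0.0038). Both genes were higher in each of the 6 olfactory bulb libraries than in each cortical one. Ifit2 (2.85), Oasl2 (3.14), Xaf1 (2.27), Samd9l (2.35), Trim25 (1.73) and Ifih1 (1.58) were the others that passed. On the filter of 5 RPM in 3 libraries, 11 of the 19 tested members passed by the cortical libraries alone. Ifitm3, Ifit2, Oasl2, Xaf1 and Samd9l did not, and entered through the olfactory bulb libraries, where they were high.

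Against hippocampal astrocytes, 18 of 19 tested members were higher in the olfactory bulb and 7 passed (limma, 0 lower), against 5.72% of all genes higher, with a median of 1.15 against 0.21. Hippocampal Cmpk2 stood at 12.6, 8.67 and 2.34 RPM (saline) and 22.5, 18.2 and 14.3 RPM (CNO), below all olfactory bulb libraries (2.87 ± 0.37, n = 6 each, limma adjusted p = 1.96e-05). Ifit1 had 0.155 RPM on average in the hippocampus, with reads in 2 of 6 libraries, and 4.15 to 20.6 RPM in the olfactory bulb (3.19 ± 0.52, limma adjusted p = 0.000308). Samd9l (2.52), Ifit3 (1.83), Ifitm3 (1.57), Oasl2 (2.80) and Xaf1 (1.91) also passed. On the filter, 14 of the 19 tested members passed by the hippocampal libraries alone. Ifit1, Samd9l, Oasl2 and Xaf1 did not, and entered through the olfactory bulb libraries, where they were high. The comparisons with cortex and hippocampus share the olfactory bulb libraries. Between cortex and hippocampus limma called 0 of 16 tested members, with 4 at an unadjusted p under 0.05, against 0.177% of all genes called, and edgeR called 0 and DESeq2 1 (Trim30a). Those 4 were Ifih1 (-1.21), Ifit2 (-1.55), Ifitm3 (-1.67) and Trim30a (-1.68), all lower in the cortex.

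Scaling and single libraries bear on the regional counts. Under TMM the median of all genes in the cortical comparison fell from 0.38 to 0.22 and 6 members passed (60.7% of called genes higher instead of 75.7%), and edgeR called 4 there (49.4%). In the hippocampal comparison TMM left 6 (59.8% instead of 68.4%) and edgeR 3. The cortical Gq-Saline library numbered 4 held 2710 RPM of microglia markers, against 84 to 102 RPM in the other Gq-Saline libraries of the cortex, and Parp9 stood there at 148 RPM against 1.26 and 6.97 RPM. With both cortical GFP libraries numbered 4 left out, 9 members passed in the cortical comparison. Without olfactory bulb Gq-Saline replicate 1, or without Gq-CNO replicate 2, 4 passed there, and 5 without Gq-Saline replicate 2. The hippocampal count was 4 without olfactory bulb Gq-CNO replicate 2.

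**Figure D4:**
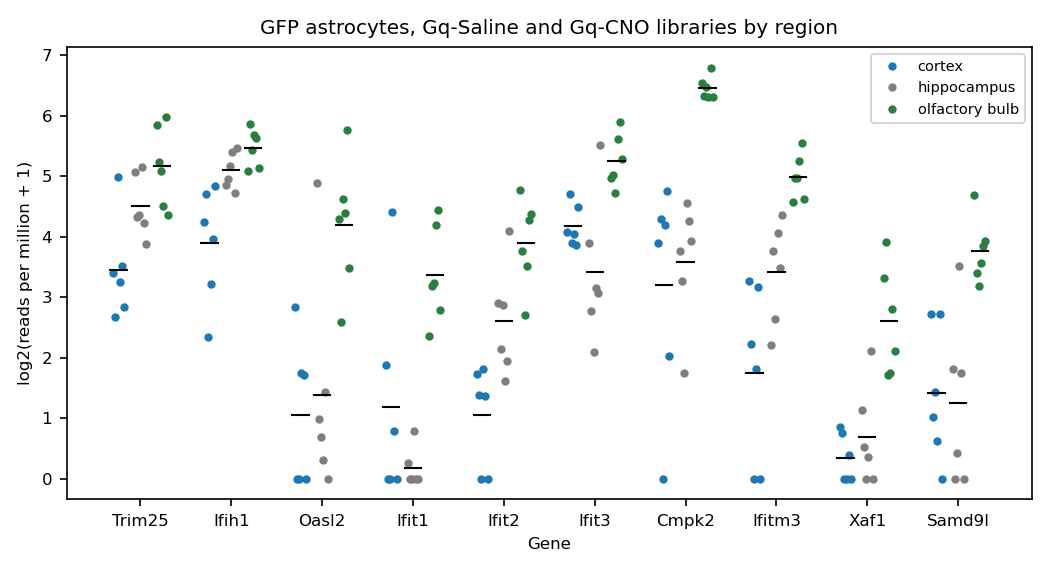
Level, as log2(RPM + 1), of the members that passed in either regional comparison, with a point per GFP astrocyte library of the Gq mice, coloured by region, and a bar at the mean. For Cmpk2 the olfactory bulb libraries (78.2 to 110 RPM) sit above all cortical and hippocampal ones.

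In the mCh sorts Oasl2, Ifi204, Ifitm3 and Samd9l differed between regions. In the olfactory bulb 3 of 29 tested members were higher than in the cortex (limma adjusted p under 0.05, 0 lower), against 5% of all genes higher. They were Oasl2 (3.81 ± 1.01, limma adjusted p = 0.0165), Ifi204 (3.60, adjusted p = 0.0247) and Ifitm3 (3.32, adjusted p = 0.0339). Oasl2 had 3.42 to 36.6 RPM in the olfactory bulb and at most 5.84 RPM in the cortex. Against the hippocampus 2 of 28 passed, and 4.14% of all genes were higher: Oasl2 (3.83 ± 0.90, limma adjusted p = 0.00463) and Samd9l (3.69 ± 0.89, limma adjusted p = 0.00581). Leaving out single libraries moved the cortical count between 1 and 4 and the hippocampal count between 2 and 4. These shares are close to the background, so they are results about the named genes alone. On the filter of 10 normalised reads in 3 libraries, 17 of the 29 tested members passed by the cortical libraries alone. By the hippocampal libraries alone, 18 of the 28 passed. Ifitm3 passed by the cortical libraries, whereas Oasl2, Ifi204 and Samd9l entered through the olfactory bulb libraries, where they were high. Between cortex and hippocampus 0 of 23 tested members passed in limma, edgeR or DESeq2, 0 had an unadjusted p under 0.05, and 0.319% of all genes were called.

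The mCh and the GFP sorts of the same region differed in Cmpk2, Ifi204, Parp14 and a few other members. In the olfactory bulb 5 of 29 tested members were higher in the mCh sort and 2 lower (limma adjusted p under 0.05), against 18.4% and 14.6% of all genes. Those higher were Ifi204 (3.59), Trim30a (2.31), Bst2 (2.01), Sp100 (1.82) and Parp14 (1.81). On the filter of 5 RPM in 3 libraries, Ifi204, Trim30a, Bst2 and Sp100 entered through the mCh libraries, where they were high. Cmpk2 was lower, at 18.2 ± 11.4 RPM against 87.7 ± 12.4 RPM (SD, n = 6 each; log2 difference -2.37 ± 0.32, limma adjusted p = 1.26e-06), and so was Ifit3 (-1.04 ± 0.37, limma adjusted p = 0.0299). Each of the 6 astrocyte libraries thus had more Cmpk2 than each of the 6 mCh libraries. In the cortex 5 of 21 were higher (17.5% of all genes): Trim30a (4.13), Parp14 (2.59), Xaf1 (2.55), Ifit2 (2.54) and Dtx3l (1.89). Of these calls 1 remained with both cortical GFP libraries numbered 4 left out, where 3 members passed, and without the Gq-CNO one alone 1 member passed. In the hippocampus 2 of 16 were higher (21% of all genes), Parp14 (2.94) and Bst2 (2.51). Trim30a, Parp14, Xaf1 and Ifit2 in the cortex, and Parp14 and Bst2 in the hippocampus, also entered the test through the mCh libraries. In the olfactory bulb, oligodendrocyte markers summed to 18277 to 37795 RPM in the mCh sort and 749 to 1359 RPM in the GFP sort. Microglia markers summed there to 4365 to 9072 RPM and 92.1 to 179 RPM, and the part of either was not tested.

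Gq-CNO was set against Gq-Saline to see what receptor activation does, and no member passed in any region or sort. Tested members numbered 26 in olfactory bulb astrocytes, 26 in its mCh sort, 13 in cortical astrocytes, 17 in the cortical mCh sort, 17 in hippocampal astrocytes and 18 in the hippocampal mCh sort. limma called 0 of them in each, against 0.00847% of all genes in olfactory bulb astrocytes and 0% in the others, and edgeR and DESeq2 called 0 as well. At an unadjusted p under 0.05 stood 1, 1, 0, 1, 0 and 0 members in that order, against 4.78%, 5.30%, 1.42%, 4.56%, 2.03% and 4.54% of all genes. Median log2 differences were 0.30, 0.60, -0.06, 0.49, 0.05 and -0.14, against -0.06 to 0.05 for all genes. In simulated reads fitted the same way, limma recovered 43%, 25.3%, 4.55%, 4.3%, 10.6% and 19.1% of 4-fold changes, in the same order. Most changes of that size would thus be missed, so a count of 0 does not show that an effect is absent.

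The members named here had the smallest unadjusted p. In the olfactory bulb mCh sort Parp9 had 0.570, 1.70 and 0.522 RPM with saline and 20.4, 13.7 and 12.3 RPM with CNO, which does not overlap but did not pass (log2 difference of normalised reads 3.62 ± 1.19, limma adjusted p = 0.90). In the cortical mCh sort Parp9 went the other way, with 30.2, 33.2 and 50.6 RPM against 4.89, 15.3 and 0 RPM (-3.59). That 0 is from the shallowest library, where it allows up to 13.2 RPM. Parp9 entered these tests through the libraries where it was high, CNO in the olfactory bulb and saline in the cortex. In olfactory bulb astrocytes Ifit3 had 30.2, 31.4 and 25.3 RPM against 48.1, 58.7 and 37.8 RPM (0.72 ± 0.34), again without overlap and without passing. Whether the Gq-CNO effect in the mCh sorts differed between regions was tested for each pair of regions over 29 members. Of 4-fold changes in simulated reads, limma recovered 0% to 4% in such fits. limma, edgeR and DESeq2 called 0 in each, 0% of all genes passed in limma, and 1 member per pair had an unadjusted p under 0.05: Parp9 for olfactory bulb minus cortex (7.20 ± 1.93, limma adjusted p = 0.94), Rtp4 for olfactory bulb minus hippocampus (4.97) and Ifit2 for cortex minus hippocampus (4.42).

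Among olfactory bulb astrocytes without the Gq label, Cmpk2 was the member that differed between CNO control and untreated mice. It had 40.2, 37.4 and 39.9 RPM with the CNO control label and 67.9, 96.8 and 73.2 RPM untreated, and fell by 1.26 on the log2 scale of normalised reads (144 ± 9.56 against 349 ± 54.9, SD, n = 3 each; SE 0.24, limma adjusted p = 0.0063). The groups do not overlap, and the call held in 13 of 13 alternatives. It was the only one of 26 tested members that limma called, against 6.88% of all genes lower and 5.29% higher, so the count is below the background. Without untreated replicate 1, 3 members passed, Cmpk2 with Ifit1 and Samd9l, and DESeq2 called Cmpk2 and Trim30a. Microglia markers summed to 537 to 729 RPM in untreated and 108 to 190 RPM in CNO control libraries. The nuclear RNA Malat1 stood at 2544.8 to 4275.6 RPM untreated against 23724.8 to 41044.5 RPM with the CNO control label. Rn45s took 15.7% to 23.0% of reads untreated against 8.90% to 11.5%. Untreated libraries held 1724893 to 2964862 reads, and CNO control libraries 6619479 to 8577907 reads. The part of these in the Cmpk2 result was not tested.

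Untreated replicate 1 stood above its group for many members. Its summed level was 1584 RPM, against 707 and 819 RPM in the others. Ifi44, a gene of uncertain function, had 119 RPM there against 4.64 and 2.70 RPM, Oasl2 157 RPM against 13.9 and 22.9 RPM, Ifit3 139 RPM against 46.4 and 39.8 RPM, and Isg15 21.5 RPM against 7.54 and 0.337 RPM. It was the highest of the 3 for 23 of 31 members compared, as for 29.1% of all genes. Cmpk2, at 67.9 RPM, was lowest in that library.

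Gq-Saline and untreated olfactory bulb astrocytes differed in 1 of 21 tested members, Lgals3bp, at 70.7 ± 24.2 RPM against 164 ± 81.1 RPM (SD, n = 3 each; log2 difference -1.15 ± 0.31, limma adjusted p = 0.0441), where 1.17% of all genes were lower. These 2 groups come from separate tables. Only 2 of the 21 were higher in Gq-Saline, and the median was -0.87 against 0.14 for all genes. Microglia markers summed to 93 to 146 RPM in Gq-Saline and 537 to 729 RPM untreated, and their part was not tested. The call was lost without Gq-Saline replicate 1 or 3 and without untreated replicate 1 or 2. DESeq2 called 5, and with no trend or no low-value filter 0 passed. Under TMM 38.6% instead of 54.0% of called genes were higher and 1 member passed.

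Cmpk2 and Rsad2 show how far neighbouring members parted. Rsad2 had 0.648 to 8.61 RPM in the olfactory bulb astrocytes of the Gq mice, at most 4.66 RPM in those of cortex and hippocampus, and 0 in 12 of 12 mCh libraries of cortex and hippocampus. In the untreated and CNO control libraries it had 23.6, 4.64 and 6.07 RPM and 15, 16.2 and 18.5 RPM. In the floxed mice it reached 33.4, 11.8 and 24.7 RPM in controls and 31.1, 102 and 44.0 RPM in the libraries labelled Slc22a3-cKO. For Cmpk2 the astrocytes stood higher than the floxed mice, with 78.2 to 110 RPM in olfactory bulb astrocytes of the Gq mice and 27.0, 9.31 and 19.7 RPM and 23.9, 29.2 and 12 RPM in the floxed mice. Per length, Rsad2 and Cmpk2 are of like exon size (4335 and 4163 bases), so these RPM can be read side by side.

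**Figure D5:**
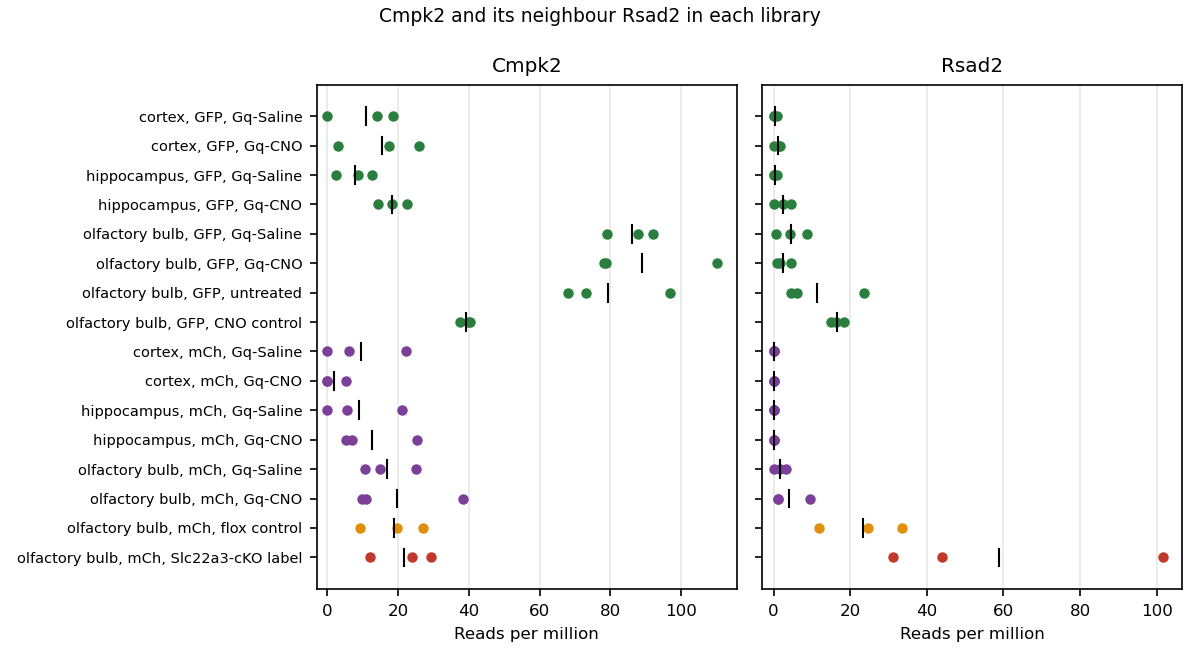
Level of Cmpk2 and Rsad2 (RPM), with a point for each of the 48 libraries and a bar at each group mean. Cmpk2 is highest in olfactory bulb GFP astrocytes (37.4 to 110 RPM), Rsad2 in the floxed mice (11.8 to 102 RPM).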

How the data were processed

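The authors deposited 6 tables of normalised signal, gene read counts divided by 1 size factor per library. The submitters' processing notes name FastQC 0.11.7 and MultiQC 1.11, STAR 2.5.0a with mm10, and DESeq2 1.30.1. Each table was normalised on its own. Per the labels, libraries were made with the Trio RNA-Seq kit from 10 ng of total RNA. Dividing a library's values by its smallest step gave whole reads for 100% of values (tolerance 0.05), from which RPM was computed. Counts had been assumed at the design stage, and a test fit for normalised signal took their place.

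Each comparison was fitted over all genes with limma 3.58.1 (R 4.3.3) after adding 1 and taking log2, using a mean-variance trend. Genes with at least 10 normalised reads (within a table) or 5 RPM (between tables) in at least 3 libraries were tested, and called where the p adjusted after Benjamini and Hochberg was under 0.05, in 22 comparisons. A log2 difference on this scale understates changes of low genes. edgeR 4.0.16 and DESeq2 1.42.0 on the recovered reads, other pseudocounts, no filter, other scaling, no trend, a replicate block and leaving out each library were the alternatives. Scripts were tested on simulated data.

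Members and lists were chosen with earlier results of these data known. Named are up to 12 called members per comparison by adjusted p, or up to 4 by unadjusted p where none passed, and all members by role for the floxed mice. Replicates 4 of 4 groups (cortical and hippocampal GFP sorts) are assigned to a group only. All libraries were kept. Within groups, 0 of 48 pairs of libraries were identical (chi-square per gene at least 9.54). Same-numbered libraries were not paired by the labels. A part of the pathway's signalling list is not reported here. Gene positions are from GENCODE vM21, and 27 entries have names turned into dates.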

Additional observations from a re-analysis of the deposited data

How the results depend on the processing

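Of 101 results in which a member passed, recomputed under 1509 alternatives, 1168 still passed, 341 lost the call and 0 turned direction, and the cause of the losses was not tested. Counts of members that passed moved by over 1.5 times as follows. In the libraries labelled Slc22a3-cKO against flox controls (17) there were 1 with no trend and 29 by DESeq2, and leaving out single libraries gave 2 to 27. For flox controls against Gq-Saline (19) there were 11 with no low-value filter, 12 with no trend and 9 by edgeR, and 3 to 16 without single libraries. For CNO control against untreated (1) DESeq2 gave 2, and single libraries left out 1 to 3. For Gq-Saline against untreated (1) no filter gave 0, no trend 0 and DESeq2 5, and single libraries left out 0 to 1. In the olfactory bulb against the cortex, edgeR gave 4 in astrocytes (8), and no filter and quantile normalisation gave 1 each in mCh sorts (3), with 4 to 9 and 1 to 4 without single libraries. Against the hippocampus edgeR gave 3 in astrocytes (7), with 4 to 7, and mCh sorts (2) had 2 to 4. Cortical against hippocampal astrocytes (0) had 1 by DESeq2. Between sorts of the cortex (5) edgeR gave 2 and leaving out both GFP libraries numbered 4 gave 3, an alternative chosen after seeing the data, with 1 to 6 without single libraries, and between sorts of the hippocampus (2) no filter gave 4, with 2 to 4.

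Same-numbered libraries share only a number: their deviations from the group means had r of -0.12 to 0.09 over 72 pairs. A replicate block gave 5 members in the libraries labelled Slc22a3-cKO and 6 between sorts of the hippocampus. In cortical astrocytes the Gq-CNO difference of Eif2ak2 turned to -0.11 and that of Herc6 to 0.12, both with the block and with both libraries numbered 4 left out, and neither passed in any setting. Where an arm kept 1 or 2 libraries, limma took the spread from all libraries fitted.

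Over all genes, the 341 calls in the libraries labelled Slc22a3-cKO were 195 with a pseudocount of 0.1, 165 with no trend, 1154 by DESeq2 and 105 with the replicate block. The 1332 for CNO control were 395 with no trend, the 239 for Gq-Saline against untreated 21 with no filter, 9 with no trend and 536 by DESeq2, and the 724 between olfactory bulb and cortical astrocytes 1382 with the block and 1392 without both libraries numbered 4. In mCh sorts the 909 and 769 of the olfactory bulb against cortex and hippocampus were 542 and 459 with no trend. Depth limits the low members most: 3 reads are 13.2 RPM in the shallowest library, and 11 members had a median of 0 outside the floxed mice.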
